A study of Arabidopsis thaliana with 18 samples.

Results

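The 8 genes MAPKKK13 to MAPKKK20 of Arabidopsis thaliana encode a numbered run of MEKK-like mitogen-activated protein kinase kinase kinases. They were chosen by their number in the family, after their FPKM values across the 6 groups of these same libraries were known, and with no threshold. All 8 were found by locus ID among the 27371 genes of the expression table. Their levels and differences are therefore given as a description, without p-values, and nothing is read from how many of them were called. PolyA RNA was sequenced from 18 libraries of the ecotype Col-0, which form 6 groups of 3 biological replicates. All plants were 21 days old, had germinated for 5 days and had then grown for 16 days with 100 mM NaCl, so that no group was free of salt. The shoot groups were wild type with salt alone (WT), with the endophytic bacterium Enterobacter sp. SA187 (SA187), with 100 nM 2-keto-4-methylthiobutyric acid (KMBA), a compound made by SA187 that plants can turn into ethylene, and with 100 nM of the ethylene precursor 1-aminocyclopropane-1-carboxylic acid (ACC). The root groups were KMBA and ACC only, so roots have no untreated control here and can be compared only with each other and with the shoots of the same treatment.

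A mitogen-activated protein kinase cascade passes a signal through 3 tiers, in which a MAPKKK phosphorylates a MAPKK (MKK) and the MKK phosphorylates a MAPK (MPK). MAPKKK13 to MAPKKK20 are the entry tier of the branch that runs through MKK3 to the group C kinases MPK1, MPK2, MPK7 and MPK14. This branch is known for slow responses that depend on new synthesis of the MAPKKK itself: MAPKKK17 and MAPKKK18 are induced by abscisic acid, and MAPKKK14 is induced by wounding. Only transcript levels were measured here, and neither the kinase proteins nor the activity of the branch.

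Values are FPKM, counts of sequenced fragments scaled by transcript length and by the number of mapped reads, and can be compared between genes. Between 14470 and 17212 genes reached 1 FPKM per library, and the summed FPKM of a library ran from 357506 to 633792. The organ labels fitted their markers: the summed level of 5 root genes was at most 0.283 FPKM in shoots and at least 77.3 FPKM in roots, that of 5 shoot genes was at least 16210 FPKM in shoots and at most 715 FPKM in roots, and 4 flower genes summed to at most 0.171 FPKM everywhere. Replicates 1 and 3 of the WT shoots stood apart from the other shoot libraries. The slope of a library's log2 deviation on log2 transcript length was -0.10 and -0.32 in them, and between -0.04 and 0.09 in the 10 others. WT replicate 2 had a slope of 0.02, but the highest summed FPKM of the 18 libraries, 633792. On another measure all 3 WT libraries stood apart: the 5th percentile of FPKM times transcript length in kb, over genes above 0 with mid-range transcript lengths, was 0.115 to 0.136 in WT, replicate 2 included, and 0.0356 to 0.0581 in the 9 treated shoot libraries. The part of this difference in the comparisons with WT was not tested. The kinase transcripts were 1336 to 1718 nt long, against a median of 1748 nt over the genes tested in shoots. Each root group was sequenced in a pool and lane of its own, so treatment in roots, or organ, and pool cannot be told apart. The WT and SA187 shoots shared a pool and lane with KMBA shoot replicates 1 and 2 and ACC shoot replicate 1. KMBA shoot replicate 3 and ACC shoot replicates 2 and 3 were in another. Pool was thus partly mixed with treatment in shoots.

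The sequences sorted the 8 genes into 4 pairs, which also order the results. Aligned residues were identical at 59.7% between MAPKKK13 and MAPKKK14, 67.0% between MAPKKK15 and MAPKKK16, 72.9% between MAPKKK17 and MAPKKK18, and 77.3% between MAPKKK19 and MAPKKK20. The 24 other pairings lay between 34.1% and 49.8%. Each gene had its coding sequence in 1 exon, and the predicted proteins ran from 339 residues (MAPKKK18) to 510 residues (MAPKKK15). The longest identical run of coding sequence within a pair was 26 to 38 nt. In TAIR10.1, MAPKKK13 (AT1G07150) lies at chr1:2193941-2195996 and MAPKKK14 (AT2G30040) at chr2:12821569-12823169. MAPKKK15 (AT5G55090) lies at chr5:22356852-22358413 and MAPKKK16 (AT4G26890) at chr4:13511837-13513406. MAPKKK17 (AT2G32510) lies at chr2:13798561-13800099 and MAPKKK18 (AT1G05100) at chr1:1469541-1470881. MAPKKK19 (AT5G67080) lies at chr5:26772644-26773979 and MAPKKK20 (AT3G50310) at chr3:18648075-18649521. MAPKKK19 overlaps AT5G67090 on the opposite strand, and since use of strand was not stated for these libraries, reads of the 2 genes may not be separated.

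The promoters of the pairs that hold MAPKKK14 and MAPKKK17, the most abundant genes of shoots and of roots, are shown next, as the 250 bases before the annotated start in the RefSeq genome TAIR10.1. Capitals mark matches to ACGTG, the core of the abscisic acid response element (ABRE), or to CCGAC, the core of the dehydration-responsive element (DRE). Both motifs were sought on both strands. The G-box CACGTG is a palindrome that contains ACGTG on both strands.
MAPKKK13 (chr1:2195997-2196246, minus strand): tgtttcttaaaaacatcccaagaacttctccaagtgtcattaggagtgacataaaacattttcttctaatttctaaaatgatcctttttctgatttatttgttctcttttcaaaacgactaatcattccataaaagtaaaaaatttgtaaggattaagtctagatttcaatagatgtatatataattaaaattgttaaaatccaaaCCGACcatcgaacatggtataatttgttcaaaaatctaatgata
MAPKKK14 (chr2:12821319-12821568, plus strand): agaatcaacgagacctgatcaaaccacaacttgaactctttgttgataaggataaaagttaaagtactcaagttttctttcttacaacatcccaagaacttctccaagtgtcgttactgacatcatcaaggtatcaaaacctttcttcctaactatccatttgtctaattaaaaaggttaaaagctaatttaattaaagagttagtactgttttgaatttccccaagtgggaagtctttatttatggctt
MAPKKK17 (chr2:13800100-13800349, minus strand): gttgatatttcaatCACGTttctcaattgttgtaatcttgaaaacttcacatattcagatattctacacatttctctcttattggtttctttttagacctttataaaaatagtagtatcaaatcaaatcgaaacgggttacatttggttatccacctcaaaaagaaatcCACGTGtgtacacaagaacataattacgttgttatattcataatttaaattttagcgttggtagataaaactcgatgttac
MAPKKK18 (chr1:1469291-1469540, plus strand): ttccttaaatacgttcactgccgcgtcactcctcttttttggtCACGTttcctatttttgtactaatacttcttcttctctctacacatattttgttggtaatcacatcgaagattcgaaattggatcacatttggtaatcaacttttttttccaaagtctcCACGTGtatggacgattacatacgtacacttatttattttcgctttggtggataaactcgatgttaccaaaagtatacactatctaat

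MAPKKK17 and MAPKKK18 had the same layout, with a G-box at positions -81 and -88 from the start and a further ACGTG on the opposite strand at -236 and -207. The stretch shown for MAPKKK14 held no match, since both of its matches lay within 50 bases after the start. Searched over the window from 250 bases before to 50 after the start, CACGTG occurred in 5 of the 8 genes (MAPKKK13, MAPKKK17, MAPKKK18, MAPKKK19 and MAPKKK20) and in 7.68% of 27443 promoters. ACGTG occurred in 6 of the 8 and in 26.7% of promoters, and CCGAC in 3 of the 8 (MAPKKK13, MAPKKK14 and MAPKKK16) and in 15.0% of promoters. TTGAC, the core of the W-box, was in 0 of the 8 and in 50.5% of promoters, and GCCGCC, the ethylene-related GCC box, was in 0 of the 8 and in 2.57%. A match is a string of letters and not a bound site. The members of each pair also shared an exact run in this window, of 17 to 36 bases, while the longest run of the 24 other pairings was 7 to 12 bases. The runs of the first and the third pair were in 0 of the other promoters on either strand.
MAPKKK13 and MAPKKK14: aacatcccaagaacttctccaagtgtc
MAPKKK17 and MAPKKK18: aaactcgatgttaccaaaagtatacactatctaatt

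**Figure D1:**
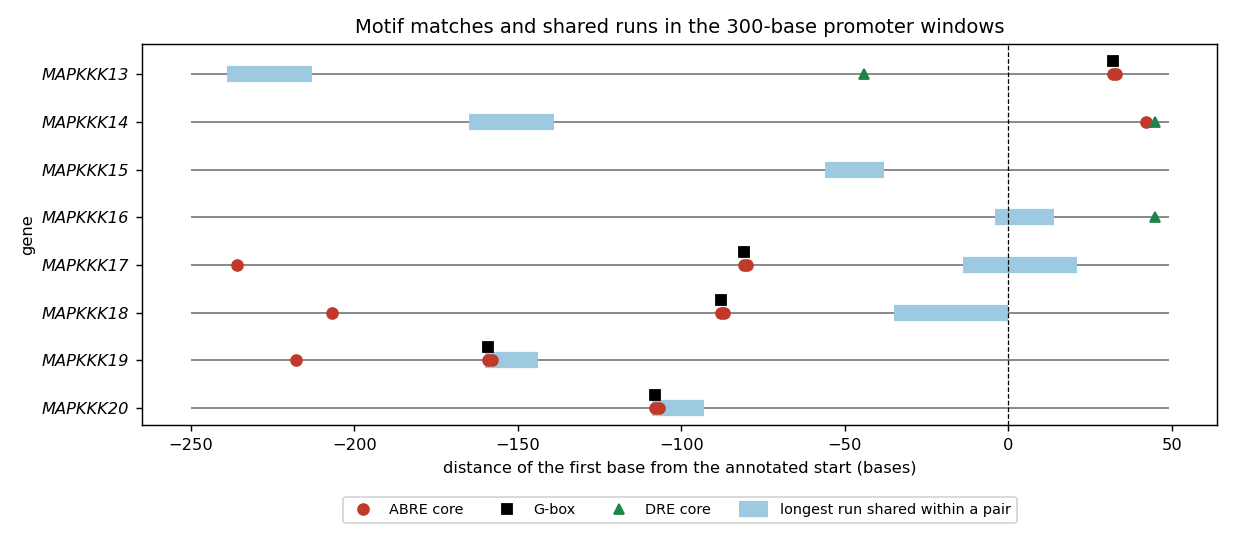
Positions of motif matches in the promoter window of each gene, with the distance of a match's first base from the annotated start in bases on the horizontal axis and 1 line per gene. Circles are ACGTG, squares CACGTG, triangles CCGAC, and light bars the longest run shared with the other member of the pair; the G-boxes of MAPKKK17 and MAPKKK18 lie at -81 and -88.

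In shoots, MAPKKK14, MAPKKK13 and MAPKKK16 were highest in WT plants and lower with SA187, KMBA and ACC. MAPKKK14, which relays wounding through MKK3, was the most abundant of the 8 genes in every shoot library. Its level in WT shoots was 132, 43.8 and 108 FPKM in replicates 1 to 3. With SA187 it was 29.2, 17.1 and 21.2 FPKM, with KMBA 13.1, 18.4 and 18.4 FPKM, and with ACC 6.52, 10.8 and 14.4 FPKM. WT replicate 2 was well below the other WT libraries, yet still above all 9 treated libraries. The mean fell from 94.7 ± 45.6 FPKM (SD, n = 3) in WT to 22.5 ± 6.17, 16.7 ± 3.05 and 10.6 ± 3.93 FPKM, which made WT 4.21, 5.68 and 8.95 times as high as SA187, KMBA and ACC. The corresponding log2 differences were -1.92 ± 0.37 (SE), -2.31 ± 0.37 and -2.96 ± 0.37.

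MAPKKK13, the pair partner of MAPKKK14, had the same order of WT libraries at a lower level. It stood at 17.3, 6.17 and 15.6 FPKM in WT shoots, at 4.43, 4.39 and 5.05 FPKM with SA187, at 2.81, 4.73 and 3.82 FPKM with KMBA, and at 2.00, 3.82 and 4.37 FPKM with ACC. No treated library reached the lowest WT library. The log2 differences from WT were -1.21 ± 0.32 (SE) with SA187, -1.46 ± 0.32 with KMBA and -1.60 ± 0.32 with ACC. MAPKKK16 stood at 4.26, 2.26 and 6.24 FPKM in WT shoots and between 1.06 and 1.88 FPKM in the 9 treated libraries, again without overlap. Its log2 differences were -0.92 ± 0.23, -1.15 ± 0.23 and -1.10 ± 0.23. Over all 15724 tested genes, 14% were lower than WT without overlap with SA187, 17.8% with KMBA and 17% with ACC. MAPKKK15, the pair partner of MAPKKK16, did not share this pattern.

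A gene was called where limma gave an adjusted p under 0.05 over all tested genes and the fold was over 2. By this rule 2 of the 6 tested members were called with SA187 (MAPKKK13 and MAPKKK14, both lower), where 1.62% of all 15724 tested genes were called. With KMBA the called members were MAPKKK13, MAPKKK14 and MAPKKK16 (3 of 6, all lower; 3.08% of all genes), and with ACC the same 3 genes (4.89% of all genes). The 3 comparisons share the WT libraries and are not independent of each other. These values moved with WT replicates 1 and 3, the libraries with the steepest length slopes. With replicate 2 as the lone WT library, an alternative chosen after seeing the data, the called members were 0 with SA187, 0 with KMBA and 1 (MAPKKK14) with ACC, and the MAPKKK14 differences were -0.96, -1.36 and -2.01. With SA187 the count ranged from 0 to 3 when single libraries were left out. It was 0 without WT replicate 1, WT replicate 3, SA187 replicate 2 or SA187 replicate 3, 1 without SA187 replicate 1, and 3 without WT replicate 2. MAPKKK16 was not called with KMBA or ACC when WT replicate 3 was left out. Subtracting the trend on transcript length left 2, 3 and 3 members called. The part of the WT libraries' length slope in these differences was not tested beyond this.

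**Figure D2:**
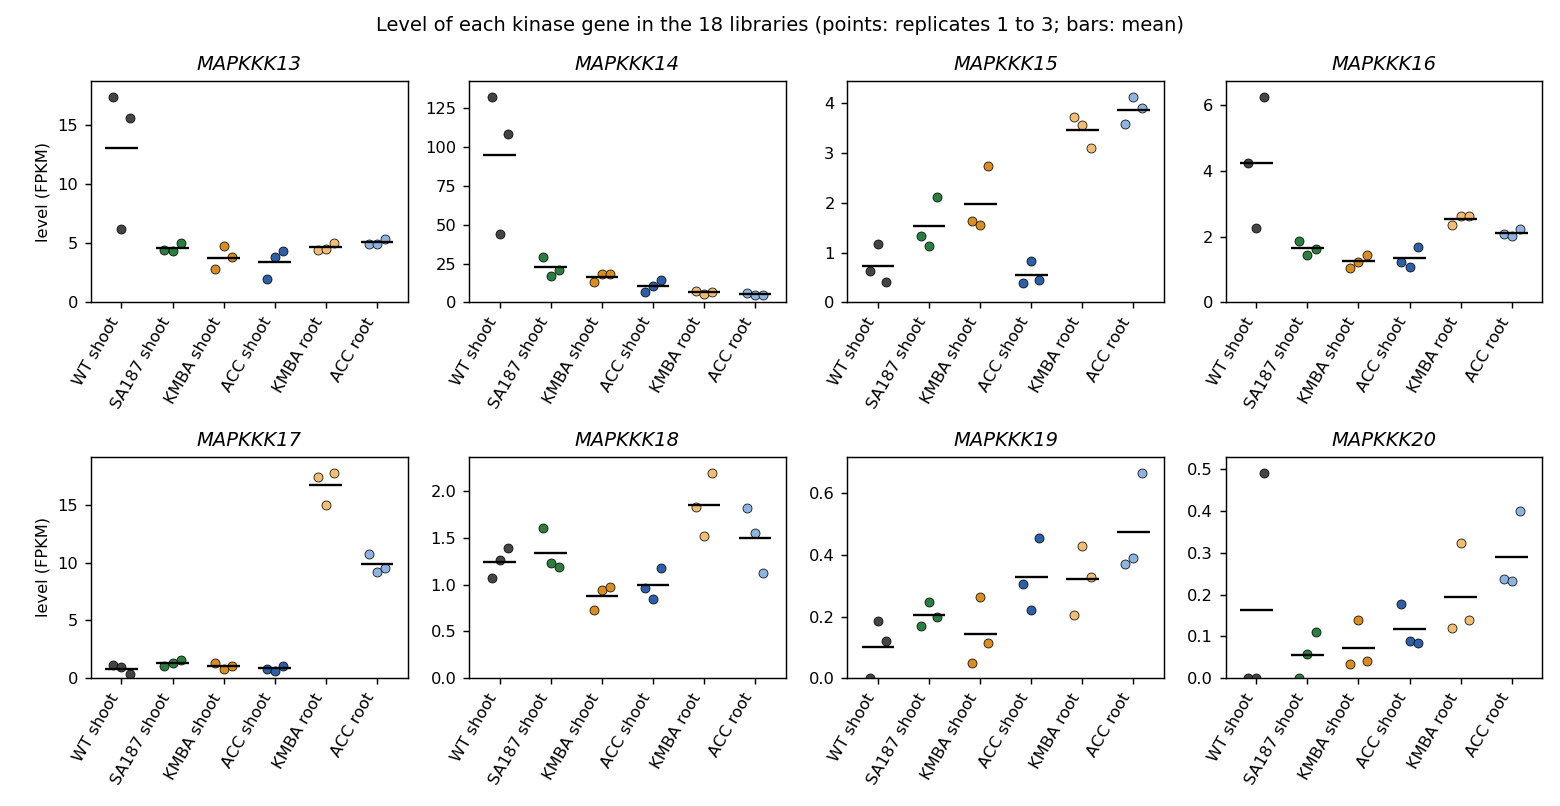
FPKM of each of the 8 genes (vertical axes, starting at 0 and scaled per gene) in the 6 groups, with a point per library in the order of replicates 1 to 3 and a bar at the group mean. MAPKKK14, MAPKKK13 and MAPKKK16 are highest in WT shoots with replicate 2 the lowest of the WT points, and MAPKKK17 lies between 9.23 and 17.8 FPKM in roots and at most 1.56 FPKM in shoots.

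MAPKKK15 was low in shoots and differed between the treatments. It stood at 0.626, 1.17 and 0.418 FPKM in WT shoots, at 1.33, 1.13 and 2.12 FPKM with SA187, at 1.63, 1.56 and 2.74 FPKM with KMBA, and at 0.383, 0.837 and 0.453 FPKM with ACC. All KMBA libraries were above all WT libraries, and all ACC libraries were below all SA187 and KMBA libraries. Of all tested genes, 19.6% were higher with KMBA than in WT without overlap, 10.6% were lower with ACC than with SA187, and 8.95% were lower with ACC than with KMBA. The log2 difference was 0.78 ± 0.21 (SE) between KMBA and WT and -0.92 ± 0.21 between ACC and KMBA, and the ratio of KMBA to ACC means was 3.54. Because log2(FPKM + 1) compresses such low values, neither difference passed the fold threshold, and both did with 0.1 FPKM added in place of 1. KMBA and ACC were given at the same dose and for the same time. Between their shoots, 0 of 6 members were called by limma (0.795% of all genes). Of the 6, 1 was under an unadjusted p of 0.05, a count with no share of all genes beside it. MAPKKK15 was called there when the sequencing pool was a covariate and when ACC replicate 2 was left out. MAPKKK13, MAPKKK14, MAPKKK16, MAPKKK17 and MAPKKK18 overlapped between KMBA and ACC shoots.

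MAPKKK17, an abscisic acid-induced activator of MKK3, was higher in roots than in shoots with KMBA and with ACC, the only treatments with root libraries. It stood at 17.4, 15.0 and 17.8 FPKM in KMBA roots and at 10.8, 9.23 and 9.58 FPKM in ACC roots. In shoots its highest value was 1.56 FPKM, and the 4 shoot groups overlapped at means of 0.819 to 1.31 FPKM. The mean in roots was 15.8 times that in shoots with KMBA and 11.8 times that with ACC. Of all tested genes, 61.5% with KMBA and 56.5% with ACC were higher in roots without overlap, and organ and pool cannot be told apart. The MAPKKK17 log2 differences were 3.11 ± 0.11 (SE) and 2.57 ± 0.11. Its close relative MAPKKK18 had no such contrast. It stood at 1.84, 1.52 and 2.19 FPKM in KMBA roots and 1.82, 1.56 and 1.12 FPKM in ACC roots, beside 0.724, 0.947 and 0.972 FPKM in KMBA shoots and 0.960, 0.850 and 1.18 FPKM in ACC shoots. MAPKKK18 was at 1.07, 1.27 and 1.40 FPKM in WT shoots and at 1.61, 1.23 and 1.19 FPKM with SA187. The KMBA shoots were below both without overlap, as were 17.8% of all tested genes against WT and 7.22% against SA187. The ACC shoots were below SA187 without overlap (10.6% of genes) and overlapped with WT. The log2 difference of KMBA from WT was -0.26 ± 0.11 (SE), not called. The ratio of MAPKKK17 to MAPKKK18 within a library ran from 5.90 to 9.89 in roots and from 0.230 to 1.77 in shoots.

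Between ACC and KMBA roots, 0 of 6 members were called by limma (1.26% of all 17169 tested genes). Of the 6, 3 were under an unadjusted p of 0.05. That count has no share of all genes beside it, and nothing is read from it. The MAPKKK17 libraries did not overlap, with a ratio of KMBA to ACC means of 1.70 and a log2 difference of -0.71 ± 0.09 (SE), under the fold threshold. MAPKKK16 did not overlap either, at 2.37, 2.64 and 2.63 FPKM with KMBA and 2.07, 2.01 and 2.24 FPKM with ACC. MAPKKK13, MAPKKK14, MAPKKK15 and MAPKKK18 overlapped between the root groups. Of all tested genes, 18.6% were lower and 20.5% higher with ACC than with KMBA without overlap.

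MAPKKK15, most clearly with ACC, and MAPKKK14 also differed between organs, in opposite directions. MAPKKK15 stood at 3.73, 3.57 and 3.10 FPKM in KMBA roots and at 3.59, 4.12 and 3.91 FPKM in ACC roots, above every shoot library. Of all tested genes, 56.5% with ACC and 61.5% with KMBA were higher in roots without overlap. The mean in roots was 6.94 times that in shoots with ACC and 1.75 times that with KMBA. MAPKKK14 was lower in roots, at 7.47, 5.65 and 6.87 FPKM with KMBA and 6.01, 5.04 and 4.86 FPKM with ACC. The ACC shoots were 1.99 times as high as the roots, and the log2 differences of roots from shoots were -1.20 ± 0.22 (SE) with KMBA and -0.82 ± 0.22 with ACC. MAPKKK13 lay between 4.43 and 5.37 FPKM in the 6 root libraries. The ACC roots, at 4.96 to 5.37 FPKM, were above all ACC shoots, at 2.00 to 4.37 FPKM, and the KMBA roots and shoots overlapped. In roots against shoots, 2 of 6 members were called with ACC (MAPKKK15 and MAPKKK17, higher; 36.6% of all 18357 tested genes) and 2 with KMBA (MAPKKK17 higher, MAPKKK14 lower; 38.2%). The median over all genes was itself 0.37 higher in roots with ACC and 0.40 with KMBA on the log2 scale. The differences of MAPKKK13, 0.51 and 0.26, of MAPKKK16, 0.42 and 0.66, and of MAPKKK18, 0.32 and 0.60, lay near that median. That of MAPKKK15 with KMBA, 0.60 ± 0.14 (SE) and not called, did so too. Median-ratio scaling brought the median to 0.03 with both treatments. MAPKKK14 was then called lower with ACC too, at -1.19 (as it was without ACC shoot replicate 1). The MAPKKK13 difference with KMBA was then -0.13 and that of MAPKKK15 0.26. With the length trend subtracted, the MAPKKK15 difference with KMBA was 0.20.

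**Figure D3:**
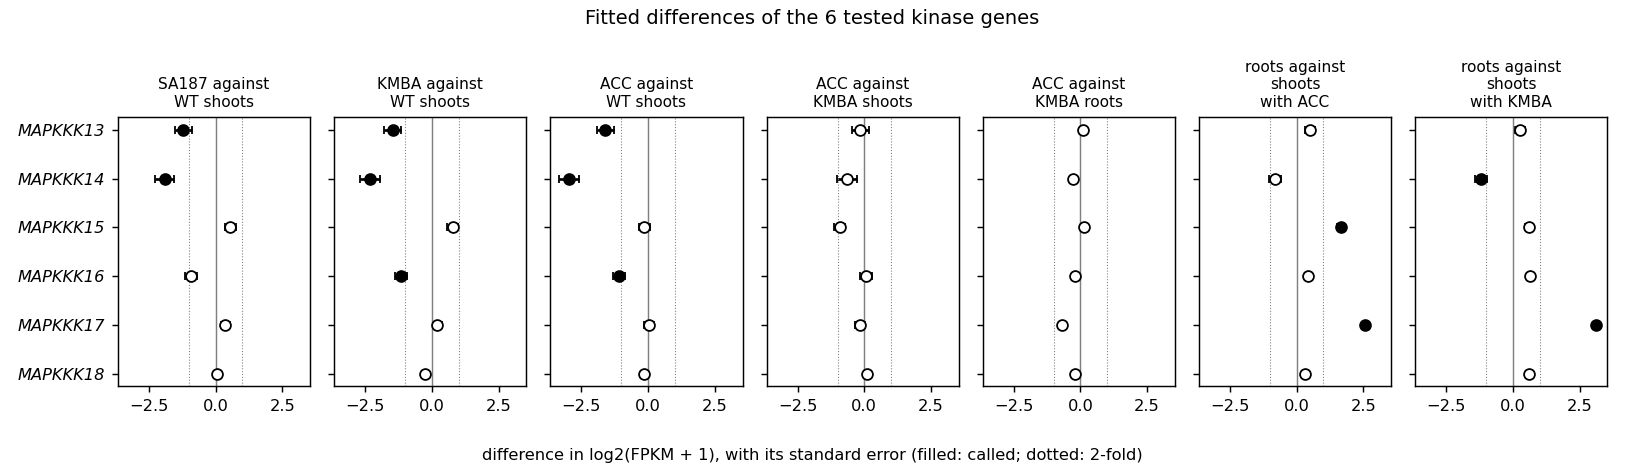
Fitted difference in log2(FPKM + 1) of the 6 tested genes (horizontal axis, with its standard error as the bar) in 7 comparisons, 1 panel each. Filled points were called at an adjusted p under 0.05 and a fold over 2, and dotted lines mark a 2-fold difference; MAPKKK13 and MAPKKK14 are filled in all 3 comparisons with WT, and MAPKKK17 in both comparisons of roots with shoots.

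The difference between ACC and KMBA was itself compared between organs in the joint fit of the 12 libraries, where a call needed the adjusted p alone. MAPKKK15 and MAPKKK17 were called (2 of 6; 10.3% of all genes). The ACC minus KMBA difference in roots minus that in shoots was 1.05 ± 0.20 (SE) for MAPKKK15 and -0.54 ± 0.16 for MAPKKK17. In the separate fits, the MAPKKK15 difference was -0.92 in shoots and 0.13 in roots. That of MAPKKK17 was -0.17 in shoots and -0.71 in roots. The MAPKKK15 call was made under all 18 alternatives run, that of MAPKKK17 under 6 of them. MAPKKK17 was not called without replicate 2 or 3 of the ACC roots, 1 or 3 of the KMBA roots, 1 or 3 of the ACC shoots, or 2 or 3 of the KMBA shoots.

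MAPKKK19 and MAPKKK20 were close to the bottom of the scale. MAPKKK19 ranged from 0 to 0.666 FPKM over the 18 libraries with a median of 0.234 FPKM, and MAPKKK20 from 0 to 0.491 FPKM with a median of 0.116 FPKM. Neither reached 1 FPKM in any library, so neither entered a fit. MAPKKK19 was listed at 0 in 1 library and MAPKKK20 in 3, and read depth is unknown, so these values set no limit on expression. The highest group mean of both was in ACC roots, at 0.476 ± 0.165 FPKM (SD, n = 3) for MAPKKK19 and 0.290 ± 0.095 FPKM for MAPKKK20, each overlapping with the next group.

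The makeup of the family therefore differed between organs. Summed over the 8 genes, the level was 115 ± 52.5 FPKM (SD, n = 3) in WT shoots and 33.2 ± 6.37, 25.8 ± 4.42 and 18.2 ± 5.68 FPKM in SA187, KMBA and ACC shoots. In roots it was 36.4 ± 2.41 FPKM with KMBA and 28.5 ± 1.18 FPKM with ACC. MAPKKK14 alone made up 52.8% to 84.4% of the sum in each shoot library and 16.8% to 20.1% in each root library, where MAPKKK17 made up 33.5% to 46.7%. The ratio of MAPKKK14 to MAPKKK13 was 7.21 ± 0.35 in WT shoots, with 6.94 to 7.60 in all 3 libraries in spite of their different levels, and 3.12 ± 0.25 in ACC shoots. A bulk library cannot tell fewer cells of a type from less RNA per cell. Guard cell genes, which sum to at most 0.525 FPKM in roots, summed to between 4.48 and 9.21 FPKM in WT shoots and 10.8 to 12.4 FPKM in ACC shoots. The 3 senescence genes summed to between 0.859 and 13.3 FPKM in WT shoots. Their sums were 1.01 to 1.56 FPKM with SA187, 0.487 to 1.41 with KMBA and 3.07 to 6.56 with ACC in shoots. In roots they were 2.59 to 4.63 FPKM with KMBA and 9.67 to 15.4 with ACC. The part of guard cell or senescence genes in the kinase levels was not tested.

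**Figure D4:**
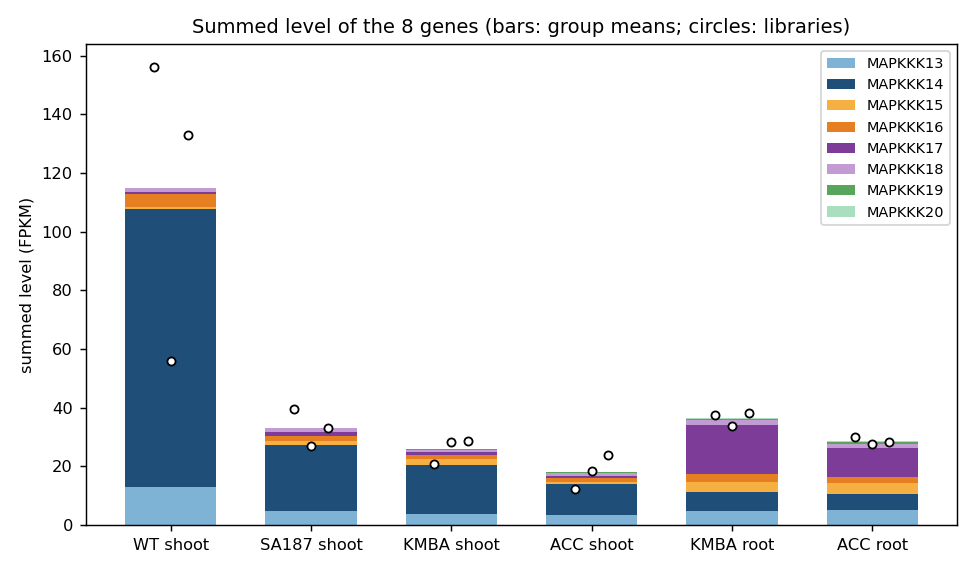
Summed FPKM of the 8 genes (vertical axis, from 0) by group, with bars stacked from the group means of each gene and circles for the sum in each library. MAPKKK14 fills most of the WT bar, whose libraries run from 55.9 to 156 FPKM, and MAPKKK17 is the largest share in both root bars.

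Over the 12 shoot libraries, levels of MAPKKK13 and MAPKKK14 on the log2(FPKM + 1) scale had a Pearson r of 0.96, of MAPKKK13 and MAPKKK16 of 0.93, and of MAPKKK14 and MAPKKK16 of 0.92. Over the 9 libraries without WT these were 0.81, 0.54 and 0.66. Libraries of a group share a treatment, so these values describe the pattern only. Among the 7724 genes whose shoot libraries averaged 5 FPKM or more, the most like MAPKKK14 were AT1G69760 (r = 0.99) and TCH2 (0.98), a touch-induced calmodulin-like protein. TCH2 stood at 499 ± 204 FPKM (SD, n = 3) in WT shoots and 140 ± 22.6, 93.3 ± 13.0 and 78.5 ± 18.5 FPKM with SA187, KMBA and ACC. The most like MAPKKK13 were AT2G41640 and CMPG1, an elicitor-responsive U-box ubiquitin ligase (both r = 0.97 to 0.98), and the most like MAPKKK16 were TET8, a tetraspanin, and RHA1, a heat shock transcription factor (both 0.99). TET8 stood at 69.7 ± 38.2 FPKM in WT and between 20.8 and 26.4 FPKM in the means of the treated groups. The genes most like MAPKKK15 were ARGAH2, an arginase, and AT1G66100 (both 0.96), which were highest with SA187 and KMBA. ARGAH2 stood at 16.5 ± 3.54, 30.4 ± 6.45, 32.5 ± 8.26 and 14.3 ± 2.41 FPKM in WT, SA187, KMBA and ACC shoots. The highest values for the low shoot levels of MAPKKK17 were with KUP3, a potassium transporter, and AT3G46450 (0.91 and 0.88), and for MAPKKK18 with AT3G09970 and AT3G49720 (0.94 and 0.89).

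The lower tiers of the branch were described by the same fits. The pathway lists were also chosen with earlier results of these data known. Outside the MKK3 list, genes were named because they were called. Adjusted p-values printed for list genes therefore describe the fits and are not independent tests. MKK3, the kinase placed downstream of the members, stood at 0.928 ± 0.157 FPKM (SD, n = 3) in WT shoots and 0.887 ± 0.147, 0.978 ± 0.126 and 0.847 ± 0.056 FPKM with SA187, KMBA and ACC. MPK1, MPK2 and MPK7 were tested with it, and MPK14, below 1 FPKM in every library, was not. In the 3 comparisons with WT, 0 of these 4 genes were called by limma, and 0 were under an unadjusted p of 0.05. With 1.62%, 3.08% and 4.89% of all genes called, a count of 0 among 4 genes does not set them apart. Their log2 differences from WT lay between -0.19 (MPK2 with KMBA) and 0.12 (MPK2 with ACC). In roots MPK2 was higher than in shoots, at 24.2 ± 0.639 against 8.92 ± 0.709 FPKM with KMBA, a log2 difference of 1.35 ± 0.08 (SE) with an adjusted p of 6.32e-09 from limma. It was not called with median-ratio scaling or the length trend subtracted. With ACC the log2 difference was 0.96 ± 0.08, under the fold threshold.

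Over the 5 pathway lists together, 0 of 48 tested genes were called by limma against WT with SA187 (10 under an unadjusted p of 0.05), 1 with KMBA (2.08%) and 2 with ACC (4.17%), beside 1.62%, 3.08% and 4.89% of all genes. Of 11 tested other MEKK-type MAPKKKs, 0 were called by limma against WT with SA187 (4 under an unadjusted p of 0.05), 1 with KMBA (6) and 1 with ACC (7), in both cases MAP3KE1, which acts in cell division and cell polarity. It rose from 1.84 ± 0.575 FPKM (SD, n = 3) in WT to 5.28 ± 0.611 with KMBA and 5.86 ± 0.537 with ACC, by log2 differences of 1.16 (adjusted p = 0.00226, limma) and 1.29 (adjusted p = 0.000226). MAP3KE1 has a transcript of 8033 nt. Its differences were 0.53 and 0.49, no longer called, once the trend on transcript length was subtracted, and it was also not called with WT replicate 2 as the lone control. Of 13 tested genes of abscisic acid signaling, 1 was called in shoots with ACC: HAI1, a protein phosphatase of the abscisic acid pathway, at 3.28 ± 2.09 FPKM with ACC against 7.13 ± 1.83 FPKM in WT (a fold just over 2 on the log2(FPKM + 1) scale, adjusted p = 0.0183, limma). The HAI1 call was made under 9 of 15 alternatives and was lost without WT replicate 1, WT replicate 3, ACC replicate 1 or ACC replicate 2. None of 5 tested other MKKs and 15 other MPKs was called against WT by limma, with 2 to 4 and 2 to 6 of them under an unadjusted p of 0.05. The share of all genes under an unadjusted p of 0.05 is not given. No shift of a list is therefore read from these unadjusted counts. Median log2 differences with SA187, KMBA and ACC were 0.24, 0.41 and 0.48 for the other MEKK-type MAPKKKs. For the other MKKs they were -0.29, -0.40 and 0.04, and over all genes -0.02, 0.002 and 0.06. Those of the MKK3, other MPK and abscisic acid lists lay between -0.19 and 0.02. The lists were not tested as sets.

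Between organs, 9 of 51 tested genes of the 5 lists were called with ACC (17.6%) and 7 of 51 with KMBA (13.7%), beside 36.6% and 38.2% of all genes. SNRK2.6, the abscisic acid-activated kinase of guard cells, fell from 10.2 ± 1.00 FPKM (SD, n = 3) in shoots to 1.79 ± 0.065 FPKM in roots with KMBA (log2 difference -2.00, adjusted p = 4.51e-09, limma), and MPK12, another guard cell kinase, fell by 1.22 on the log2 scale (adjusted p = 2.17e-08). Both were lower in roots with ACC as well, with log2 differences of -1.68 and -1.51. ABI1, a phosphatase that restrains abscisic acid signaling, rose from 9.02 ± 0.936 FPKM in KMBA shoots to 28.6 FPKM in KMBA roots (adjusted p = 1.61e-08), and MPK13 rose from 1.34 ± 0.127 to 5.84 ± 0.362 FPKM (adjusted p = 4.42e-09). ABF4, a transcription factor that binds ABREs, had log2 differences of 1.17 with KMBA and 1.18 with ACC and was not called with median-ratio scaling or with the length trend subtracted in either. With KMBA, ANP1 (log2 difference 1.11) was called likewise, and with ACC, MEKK3 (-1.04), MAP3KE1 (-1.02) and MPK11 (-1.05) were called. ANP1 also lost the call under both of these alternatives. MEKK3 was not called without ACC root replicate 1, nor MAP3KE1 without that library or without ACC shoot replicate 3.

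**Figure D5:**
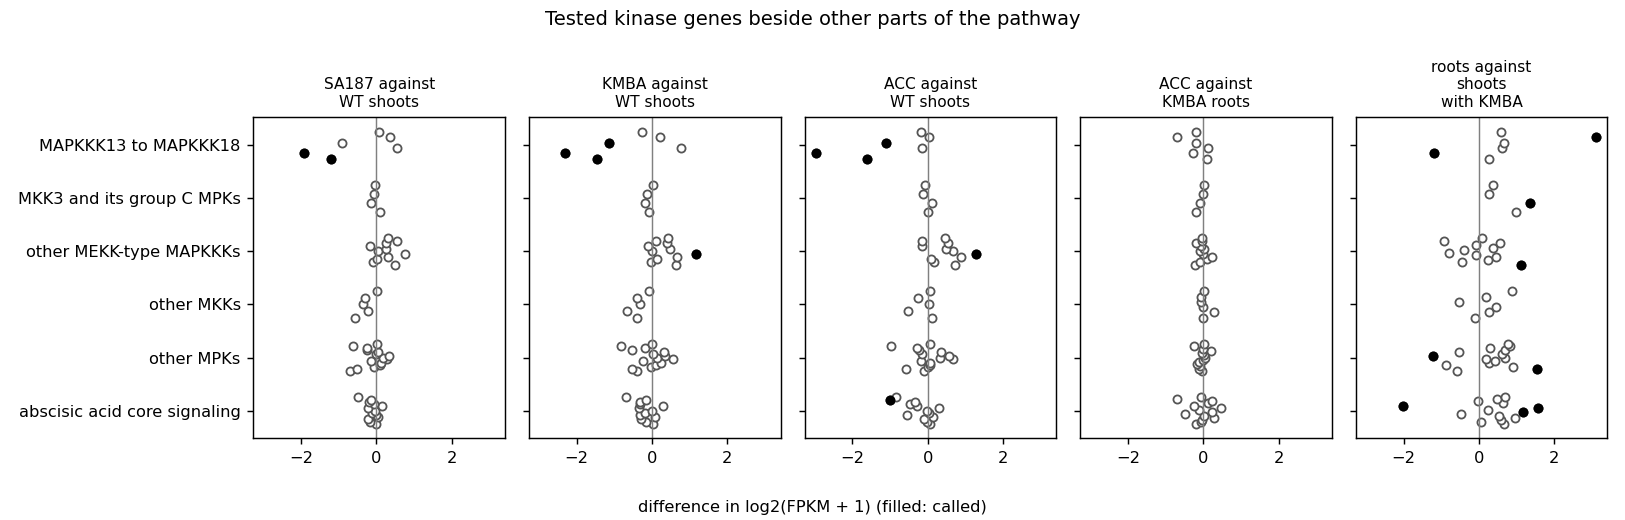
Fitted difference in log2(FPKM + 1) (horizontal axis) of the tested kinase genes and of the tested genes of 5 pathway lists (rows), in 5 comparisons, with a point per gene, filled where called. In the 3 comparisons with WT the tested members spread from -2.96 to 0.78, while MKK3 and its MPKs stay between -0.19 and 0.12.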

How the data were processed

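Libraries of polyA RNA were sequenced on an Illumina instrument. Per the labels and the study's methods, the authors trimmed reads with Trimmomatic 0.36, aligned them to TAIR10 with TopHat and computed the deposited FPKM values with Cufflinks 2.2.1. FPKM does not keep the number of reads, and the replicates' spread is the sole measure of precision. The authors' own fold changes were not used.

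The members and gene lists were chosen with earlier results of these data known, so adjusted p-values of list genes are not independent tests. A gene entered a fit if 3 or more of its libraries reached 1 FPKM. Values of log2(FPKM + 1) were fitted with limma 3.58.1 (R 4.3.3) using lmFit, contrasts.fit and trended eBayes, and 2-sided p-values were adjusted by Benjamini-Hochberg across the whole table. A fold on this scale understates the change of low genes. Separate fits were made for the 4 shoot groups, for the root groups and for the 12 ACC and KMBA libraries. The model was also run on simulated data, with equal spread in all groups, no slope on transcript length and changes only in more abundant genes. That run therefore says nothing of the WT libraries' differences or of the low genes. Alternatives were a pseudocount of 0.1 FPKM, no filter, median-ratio scaling, no trend, only the compared groups, sequencing pool as a covariate, a replicate block, subtraction of a lowess trend on transcript length (span 0.3) and leaving out each library. WT replicate 2 as the lone control was chosen after seeing the data, and there its spread was assumed to be that of the other groups.

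Named genes were all members, the MKK3 list, up to 3 called genes of each other list per comparison, and the 2 genes most correlated with each member over the shoot libraries. Structures and sequences came from RefSeq TAIR10.1 by locus ID, which gave a transcript length for 26703 of 27371 genes. Protein identities were computed with Biopython global alignments (BLOSUM62). Figures were drawn with matplotlib.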

Additional observations from a re-analysis of the deposited data

Results flagged for a closer look

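The difference between ACC and KMBA was compared between roots and shoots by a contrast in the joint limma fit. MAPKKK15 had a value of 1.05 on the log2 scale, roots minus shoots: in shoots ACC was below KMBA in all libraries, and in roots the ACC and KMBA libraries overlapped. MAPKKK17 had a value of -0.54, with ACC below KMBA in all root libraries and overlap in shoots. Among the pathway genes, MEKK3, a MEKK-type MAPKKK, had a value of -0.64 (adjusted p = 0.00246, limma). It stood at 7.41 ± 0.127 FPKM (SD, n = 3) in ACC shoots, 4.32 ± 0.036 in KMBA shoots, 3.11 ± 0.287 in ACC roots and 3.04 ± 0.198 in KMBA roots. HAI2, a phosphatase of abscisic acid signaling, had a value of -0.75 (adjusted p = 0.0428, limma), which passed the threshold under 7 of 18 alternatives (adjusted p from 0.00641 to 0.102). MEKK3 and HAI2 were named because they were called, so their adjusted p-values are a description. The 2 root groups came from different sequencing pools, and pool and treatment cannot be told apart there.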

How the results depend on the processing

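With SA187 against WT, 2 members were called, 1 with no filter on low values, 0 with only the 2 groups compared, 1 with sequencing pool as a covariate, and 0 with WT replicate 2 as the lone control (0 to 3 when 1 library was left out). With KMBA against WT, 3 were called, 1 with only the 2 groups compared, and 0 with the lone WT control (2 to 3 when 1 library was left out). With ACC against WT, 3 were called, and 1 with the lone WT control (2 to 3). Between ACC and KMBA shoots, 0 were called, and 1 (MAPKKK15) with a pseudocount of 0.1 FPKM and with pool as a covariate (0 to 1). For the organ by compound difference, 2 were called, and 1 with median-ratio scaling, the length trend subtracted, no filter or a pseudocount of 0.1 (1 to 2). Roots against shoots gave 2 to 3 with ACC and 2 with KMBA throughout, and ACC against KMBA roots gave 0 throughout. Of 688 recomputed log2 differences of the members, 632 moved by less than the SD between replicates, 56 moved further, and 0 called differences changed sign.

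Over all genes, the calls with SA187 against WT numbered 254, 10 with only the 2 groups compared, 18 with the lone WT control (8 higher and 10 lower), and 12 to 725 when 1 library was left out. Roots against shoots split into 4165 higher and 2553 lower genes with ACC and 4537 and 2477 with KMBA, and into 3038 and 3158, and 3337 and 3176, with median-ratio scaling. Same-numbered libraries of different groups deviated together in 14 of 45 pairs (Pearson r over 0.1; median 0.05, range -0.16 to 0.32). Without the same count for differently numbered libraries, this does not decide whether the numbers pair the samples. The main fits used no pairing. With a replicate block, the members called were 2, 3, 3, 0, 0, 2, 2 and 2, as without the block, in the order SA187, KMBA and ACC against WT, ACC against KMBA in shoots and in roots, roots against shoots with ACC and with KMBA, and the organ by compound difference. FPKM keeps no read depth, which limits what can be said of MAPKKK19 and MAPKKK20.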
